A study of Homo sapiens with 4 samples.

Results

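IFITM2 and IFNGR1 are 2 interferon-linked genes that were picked out by name among the 2897 genes of the deposited RNA-seq table, with their levels in these libraries already known. Both had a row in the table and fragments in every library. The libraries came from the human gastric adenocarcinoma cell line AGS-1 (named AGS in the cell line label) and the human gastric carcinoma cell line HGC-27, both labelled as wild type. For each line the deposited data hold 1 untreated sample, called control, and 1 sample of cells given isorhamnetin (ISO), a plant flavonol, for 24 h. The study's text speaks of duplicates, but the labels and the table give 1 sample and 1 column per condition, treated here as 1 library. Whether a column pools duplicates is not given in the sources used here. The labels give an ISO dose of 50 μM, while the study's text gives a lower dose for the same experiment, so the dose is uncertain. Each condition is 1 library of an established line grown with serum, and the labels name neither a vehicle for the controls nor an added interferon. With 1 library per group no spread between replicates could be measured, and all differences described for single genes compare 2 libraries.

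IFNGR1 encodes the ligand-binding chain of the interferon gamma receptor. Together with the second chain, IFNGR2, it signals through the kinases JAK1 and JAK2 to gamma-activated sites (GAS) in promoters. Interferons of type I and type III act through other receptors and to the interferon-stimulated response element (ISRE). IFITM2 belongs to a family of small interferon-induced membrane proteins, with IFITM1 and IFITM3, that restrict the entry of enveloped viruses at the cell surface and at endosomes. IFITM2 thus stands among the targets of the pathway and IFNGR1 at its entry, and epithelial cells express IFNGR1 without prior stimulation.

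The table places IFITM2 (ENSG00000185201) on chromosome 11 at 303655 to 309397, plus strand, with a gene length of 1507 bases. IFNGR1 (ENSG00000027697) is placed on chromosome 6 at 137197485 to 137219449, minus strand, with a gene length of 3276 bases. Both are protein-coding genes, and the labels name the build GRCh38. IFITM1 (310041 to 315272) lies 0.644 kb downstream of IFITM2 and IFITM3 (319676 to 329475) 10.3 kb downstream. The IFITM genes are near copies of each other. The coding sequences of IFITM2 and IFITM3 in GENCODE 29 were 93.9% identical over 396 aligned bases, and those of IFITM2 and IFITM1 were 85.4% identical over 336 aligned bases. The longest exact run shared by IFITM2 and IFITM3 had 99 bases and was also found in IFITM1. It is shown because a fragment that falls inside it cannot be assigned to any of the 3 genes. In IFITM2 it spans coding bases 235 to 333, counted from the start codon:
IFITM1, IFITM2 and IFITM3: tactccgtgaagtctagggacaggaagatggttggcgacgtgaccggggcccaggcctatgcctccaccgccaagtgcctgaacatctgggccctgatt
Of the 1189 distinct 50-base words in the IFITM2 transcripts, 14.05% also occurred in IFITM3 transcripts, 4.21% in IFITM1 transcripts and 19.8% in the transcripts of any other gene. None of the 3629 words of IFNGR1 transcripts occurred in another gene. IFITM2 values are therefore less certain than those of IFNGR1, because how the authors assigned shared fragments is not given in the sources used here. The values of IFITM1 and IFITM3 have the same limit, with 32.0% and 35.2% of their words found in another gene. These shares cannot be compared with those of IFITM2. Each gene's own words came from transcripts inside its place in the table, while the transcripts of other genes were not limited in this way. IFITM1 shared 29.4% of its words with transcripts named IFITM2, against the 4.21% seen from IFITM2.

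Promoter sequences were taken from RefSeq (GRCh38.p14) as windows of 250 bases before and 50 bases after each start listed there. Such a start need not be the gene boundary given above. The windows of IFITM1 and IFITM3 lie inside the genes as placed there. The ISRE was searched as GAAANNGAAA on both strands and GAS as TTCNNNGAA, which reads the same on both strands. Among all 35116 windows, 3.57% held an ISRE match and 7.66% a GAS match. The promoters of the paralogs IFITM1 and IFITM3 are shown beside that of IFNGR1, and those of BST2 and ISG15 because these were the genes of the pathway list at least 2-fold lower under ISO in AGS-1. Each line runs from 250 bases before the start to 20 bases after it, 5′ to 3′ on the strand of the gene, and capitals mark letters that match either motif:
IFITM1 promoter, chr11:313790-314059, plus strand: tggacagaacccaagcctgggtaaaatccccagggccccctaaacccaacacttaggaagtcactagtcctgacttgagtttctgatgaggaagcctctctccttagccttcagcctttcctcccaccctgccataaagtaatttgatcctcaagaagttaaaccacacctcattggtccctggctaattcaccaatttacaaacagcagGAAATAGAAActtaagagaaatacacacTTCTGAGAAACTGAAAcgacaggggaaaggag
IFITM3 promoter, chr11:320841-321110, minus strand: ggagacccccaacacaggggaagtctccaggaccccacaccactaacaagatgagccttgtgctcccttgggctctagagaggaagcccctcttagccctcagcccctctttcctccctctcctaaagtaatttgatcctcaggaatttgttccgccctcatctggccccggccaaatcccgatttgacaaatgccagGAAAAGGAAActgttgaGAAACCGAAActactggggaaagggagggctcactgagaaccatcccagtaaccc
IFNGR1 promoter, chr6:137219366-137219635, minus strand: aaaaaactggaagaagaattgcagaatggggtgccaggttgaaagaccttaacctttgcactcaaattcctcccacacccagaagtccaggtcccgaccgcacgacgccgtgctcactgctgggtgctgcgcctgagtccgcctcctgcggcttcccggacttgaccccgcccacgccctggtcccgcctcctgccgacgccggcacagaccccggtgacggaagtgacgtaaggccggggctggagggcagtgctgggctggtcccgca
BST2 promoter, chr19:17405611-17405880, minus strand: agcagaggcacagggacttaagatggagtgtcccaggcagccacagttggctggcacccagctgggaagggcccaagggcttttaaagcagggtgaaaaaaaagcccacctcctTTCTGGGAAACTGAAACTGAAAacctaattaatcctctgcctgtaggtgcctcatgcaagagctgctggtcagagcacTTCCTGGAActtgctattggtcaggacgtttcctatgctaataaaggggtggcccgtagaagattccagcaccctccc
ISG15 promoter, chr1:1013247-1013516, plus strand: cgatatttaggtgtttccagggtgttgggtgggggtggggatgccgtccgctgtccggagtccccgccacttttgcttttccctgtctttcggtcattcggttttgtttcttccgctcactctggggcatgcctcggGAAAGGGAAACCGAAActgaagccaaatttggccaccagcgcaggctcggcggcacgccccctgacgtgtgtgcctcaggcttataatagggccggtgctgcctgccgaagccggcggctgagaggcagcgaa
IFITM1 held ISRE matches starting 40 and 6 bases before the start, the second of which overlapped a GAS match starting 12 bases before it. IFITM3 held ISRE matches starting 52 and 35 bases before its start. In BST2, overlapping ISRE matches started 130 and 124 bases before the start, the first of them overlapping a GAS match, and in ISG15 overlapping ISRE matches started 113 and 107 bases before it. Neither of the 2 windows listed for IFNGR1 held a match to either motif, which says only that these letters are not in these windows.

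The libraries held between 15235004 and 20199425 fragments, recovered from the deposited values, and the genes of the table took up between 59.96% and 78.5% of them, the highest share in the AGS-1 control. FPKM are fragments scaled by gene length and library size, as the authors deposited them. The cell type labels were checked against markers. Of 6 epithelial markers 5 were in the table, with a summed level of 1916 FPKM in the AGS-1 control and 1136 FPKM in the ISO library, against 4.76 and 2.66 FPKM in HGC-27. The defining epithelial marker EPCAM was at 0.387 FPKM in the HGC-27 control, while VIM and TWIST1 (2 of 5 mesenchymal markers in the table) summed to 640 and 404 FPKM there and to under 1 FPKM in each AGS-1 library. Of 8 markers of immune cells, which make interferon gamma, 1 was in the table. This was LYZ, a gene that gastric epithelium also expresses, at 594 and 314 FPKM in AGS-1 and listed at 0 in both HGC-27 libraries. These summed levels thus differ between the lines and, like IFITM2, are lower with ISO, except for the mesenchymal pair in AGS-1 and for LYZ in HGC-27, and their part in the results on IFITM2 and IFNGR1 was not tested.

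IFITM2 was lower with ISO than in the control in both cell lines, and far lower in AGS-1 than in HGC-27. In AGS-1 it was at 9.28 FPKM in the control (213 fragments, 95% Poisson interval 8.07 to 10.6 FPKM) and at 1.91 FPKM with ISO (46 fragments, 1.40 to 2.55 FPKM). In HGC-27 it was at 105 FPKM in the control (3196 fragments, 101 to 109 FPKM) and at 57.4 FPKM with ISO (1477 fragments, 54.5 to 60.4 FPKM). The ISO library was thus the lower one in each line, and both AGS-1 libraries lay below both HGC-27 libraries. Over all genes, 56.0% were lower with ISO in both lines, and 43.8% were lower in the AGS-1 control than in the HGC-27 control. How many had both AGS-1 libraries below both HGC-27 libraries was not counted. The Poisson intervals, and the intervals given for ratios, cover counting error only and leave out the variation between cultures. In bulk RNA, fewer cells that express a gene and less of its RNA per cell cannot be told apart.

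In AGS-1, the control over the ISO library gave a 4.85-fold difference in FPKM for IFITM2 (95% exact interval 3.51 to 6.82). On the log2 scale of FPKM + 1, which is used from here on and understates differences of low genes, the ratio of ISO to control was −1.82. Only 0.483% of the genes in the table had a lower ratio in AGS-1. In HGC-27 the difference was 1.83-fold (1.72 to 1.95), with a log2 ratio of −0.86, and 1.52% of genes had a lower ratio. The median log2 ratio of all genes was itself below 0, at −0.29 for AGS-1 and −0.11 for HGC-27. With these medians taken off, the IFITM2 ratio was −1.53 for AGS-1 and −0.75 for HGC-27. A ratio of at least 1 in size, a 2-fold difference, was used as the threshold. In AGS-1 6.63% of genes were at least 2-fold lower and 0.828% at least 2-fold higher with ISO (192 and 24 genes). In HGC-27 these shares were 0.932% and 0.552% (27 and 16 genes). The split depends on the scaling, since upper-quartile scaling gave 45 lower and 60 higher genes in AGS-1 and 15 and 26 in HGC-27. IFITM2 was past the threshold in AGS-1 and short of it in HGC-27, and it was lower with ISO in both lines under each scaling tried.

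IFNGR1 showed another pattern, with similar levels in 3 libraries and a lower level in HGC-27 with ISO. In AGS-1 it was at 31.8 FPKM in the control (1586 fragments, 95% Poisson interval 30.2 to 33.4 FPKM) and at 30.3 FPKM with ISO (1582 fragments, 28.8 to 31.8 FPKM). In HGC-27 it was at 34.2 FPKM in the control (2262 fragments, 32.8 to 35.6 FPKM) and at 15.4 FPKM with ISO (860 fragments, 14.4 to 16.4 FPKM). HGC-27 with ISO was the lowest library, and the AGS-1 libraries overlapped within counting error.

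The log2 ratio of IFNGR1 in HGC-27 was −1.10, a 2.22-fold lower FPKM with ISO (95% exact interval 2.05 to 2.41), and 0.621% of genes had a lower ratio there. With the median of all genes taken off it was −0.998. In AGS-1 the log2 ratio was −0.07, a 1.05-fold difference whose interval (0.979 to 1.13) holds no difference. Relative to all genes this ratio was 0.22, and its sign depended on the scaling, with 0.20 under median-of-ratios scaling and 0.34 under upper-quartile scaling. IFNGR1 was past the 2-fold threshold in HGC-27 as deposited, and at −0.96 under upper-quartile scaling it was just short of it.

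**Figure D1:**
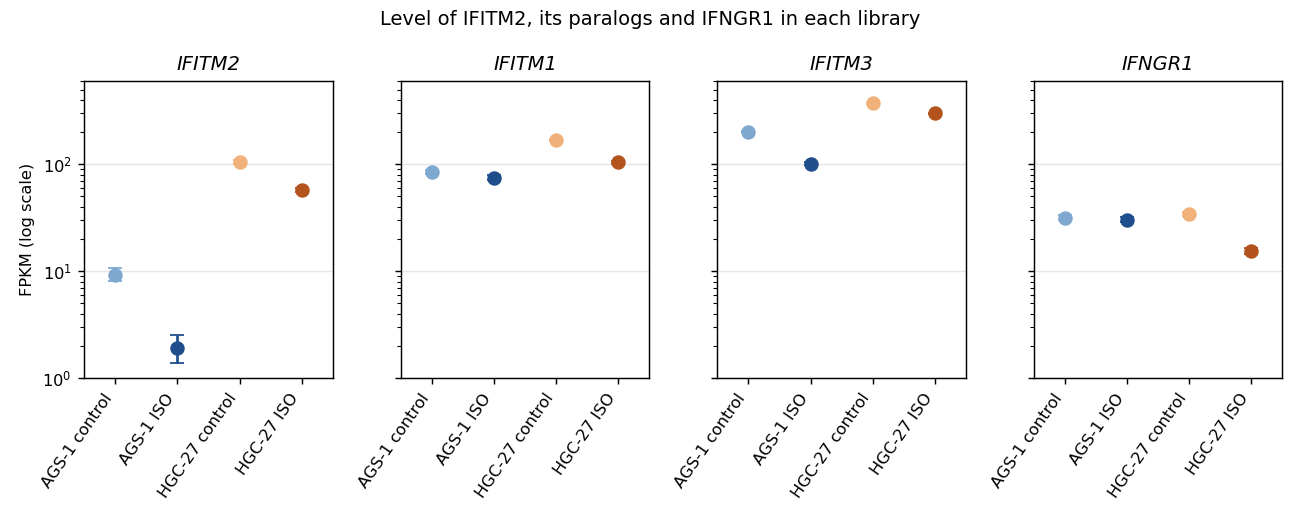
Level of IFITM2, IFITM1, IFITM3 and IFNGR1 in FPKM (log axis) in each of the 4 libraries, with bars for the 95% Poisson interval of the fragments, which for most points is smaller than the symbol. IFITM2 spans 1.91 to 105 FPKM, while IFNGR1 stays between 30.3 and 34.2 FPKM in 3 libraries and is at 15.4 FPKM in HGC-27 with ISO.

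IFITM2 and IFNGR1 therefore stood apart in the line with the larger ISO ratio. The IFITM2 ratio in AGS-1 minus that in HGC-27 was −0.96, and the same difference for IFNGR1 was 1.03. Neither difference could be tested, because the 4 libraries leave no residual degree of freedom for it. Both genes were chosen for these ratios, which are given as a description.

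Between the lines, IFITM2 was 11.3-fold higher in the HGC-27 control than in the AGS-1 control (95% exact interval 9.85 to 13.1), and 30.0-fold higher between the ISO libraries (22.4 to 41.2). In rank among the 2897 genes IFITM2 was at position 256 in the HGC-27 control and at position 2728 in the AGS-1 control. The FPKM of IFNGR1 in the controls differed by 1.08-fold, higher in HGC-27 (1.01 to 1.15), and with ISO it was 1.97-fold higher in AGS-1. Among all genes, 12.7% were at least 2-fold lower in the AGS-1 control than in the HGC-27 control and 24.0% at least 2-fold higher. With ISO these shares were 13.3% and 17.1%. In order of level, IFITM2 ran from HGC-27 control over HGC-27 with ISO and AGS-1 control to AGS-1 with ISO, with no overlap of neighbouring counting intervals. How many of all genes show no such overlap was not counted. IFNGR1 ran from HGC-27 control over AGS-1 control and AGS-1 with ISO to HGC-27 with ISO. Only the last had a counting interval apart from that of its neighbour. Overlapping intervals do not mean equal levels, since the exact interval for the ratio of the controls, 1.01 to 1.15, leaves out equality.

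The paralogs IFITM1 and IFITM3 were more abundant than IFITM2 in every library. In AGS-1, IFITM3 was at 202 FPKM without ISO and 101 FPKM with it, and in HGC-27 at 372 and 299 FPKM. For IFITM1 the corresponding levels were 83.8 and 75.2 FPKM, and 169 and 104 FPKM. All 3 genes had lower FPKM with ISO in both lines as deposited, but the log2 ratio of IFITM1 in AGS-1 (−0.16) turned to 0.12 under median-of-ratios and 0.26 under upper-quartile scaling. The log2 ratio of IFITM3 was −0.99 for AGS-1 and −0.31 for HGC-27, where that of IFITM1 was −0.69. IFITM2, which was chosen for its ratios, had the lowest ratio of the 3 in each line. Summed over the 3 genes, AGS-1 had 295 FPKM without ISO and 178 FPKM with it, and HGC-27 had 646 and 460 FPKM. IFITM2 made up 3.14% and 1.07% of that sum in the AGS-1 libraries, and 16.3% and 12.5% in the HGC-27 libraries. These shares and the order of the 3 genes depend on how shared fragments were assigned.

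Genes around IFITM2 were compared with it. Within 250 kb the table held 6 genes, namely RIC8A, PSMD13, PGGHG, IFITM1, IFITM3 and PKP3. PGGHG, 7.55 kb upstream, had log2 ratios of 0.02 (AGS-1) and −0.19 (HGC-27), while PKP3, a desmosome protein, had −0.78 and −0.21. RIC8A and PSMD13, a proteasome subunit, had −0.38 and −0.32 in AGS-1 and 0.02 and −0.27 in HGC-27. Over the 13 genes within 1 Mb the ratios lay between −0.99 and 0.05 in AGS-1 and between −0.69 and 1.40 in HGC-27. IFITM2 was below all of them in both lines, but it was chosen for its ratios, so this order is a description only. Around IFNGR1 the table held 1 gene within 1 Mb, PERP, with log2 ratios of −0.44 and −0.16.

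The other interferon pathway genes were taken from a list of 151 genes, of which 30 had a row. The rest were not analysed here. No other receptor chain, no interferon and no class II antigen presentation gene was among the 30. The log2 ratios of these 30 genes had a median of −0.49 (AGS-1) and −0.19 (HGC-27), against −0.29 and −0.11 over all genes. In AGS-1, 25 of the 30 had a ratio below 0 and in HGC-27 20 of them, and 20 were below 0 in both lines. Over all genes 78.6% were below 0 in AGS-1, 64.2% in HGC-27 and 56.0% in both. Counts below 0 depended on the scaling, with 20 of 30 in each line under median-of-ratios scaling, and 17 (AGS-1) and 16 (HGC-27) under upper-quartile scaling. With the median of all genes taken off, the list median was −0.21 and −0.09 in the 2 lines, and −0.17 and −0.08 under upper-quartile scaling.

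Past the 2-fold threshold, 2 of the 30 genes (6.67%) were lower in AGS-1 and 0 higher, beside 6.63% and 0.828% of all genes, and in HGC-27 0 of 30 were lower or higher, beside 0.932% and 0.552%. The share in AGS-1 was near that of all genes. The 2 genes were ISG15, a ubiquitin-like modifier, and BST2, known as tetherin, which holds budding virus at the cell surface. In AGS-1, ISG15 was at 673 FPKM without ISO and 261 FPKM with it, and in HGC-27 at 567 and 372 FPKM. BST2 was at 55.8 and 26.3 FPKM in AGS-1 and at 577 and 316 FPKM in HGC-27. It shared with IFITM2 both the higher level in HGC-27 and the lower value with ISO. These traits were not particular to BST2, and IFITM1, IFITM3, IFI35 and B2M were among the genes that had both. Of the 30 genes, 13 were higher in the HGC-27 control than in the AGS-1 control, beside 43.8% of all genes.

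In signalling, the table held 1 of 3 kinases, TYK2, which serves the type I receptor, which was higher with ISO in both lines, from 13.6 to 18.9 FPKM for AGS-1 and from 44.5 to 60.9 FPKM for HGC-27. STAT2, a transcription factor of type I signalling, was at 13.9 and 21.2 FPKM in AGS-1 and at 23.3 and 27.01 FPKM in HGC-27. Its log2 ratios were 0.57 and 0.20, above 0 under each scaling tried. Of the interferon regulatory factors and their binding proteins, 4 were in the table. IRF3, which acts upstream of type I interferon genes, had ratios of −0.52 (AGS-1) and 0.15 (HGC-27). IRF2BP1, IRF2BP2 and IRF2BPL were below 0 in both lines as deposited. IRF2BP2 turned to 0.15 in AGS-1 under median-of-ratios scaling and to 0.29 under upper-quartile scaling. The signs of IRF2BP1 and IRF2BPL under other scalings are not given here. The counting interval of IRF2BP1 in HGC-27 (−0.22 to 0.03) held 0.

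Of 12 inhibitors 3 were in the table. SOCS3, a feedback inhibitor of cytokine receptors, had log2 ratios of −0.96 (AGS-1) and −0.17 (HGC-27), while PTPN1, a tyrosine phosphatase, had −0.92 and −0.13. The phosphatase PTPN11 had −0.17 and 0.42, and turned to 0.11 in AGS-1 under median-of-ratios scaling. The signs of SOCS3 and PTPN1 under other scalings are not given here. None of the 3 was past the threshold in either line.

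Beside ISG15 and BST2, another 12 interferon-stimulated genes were in the table. IFI6 was at 625 and 323 FPKM in AGS-1 and 548 and 472 FPKM in HGC-27, with ratios of −0.95 and −0.21. WARS1, the tryptophan tRNA synthetase that interferon gamma induces, had −0.76 and −0.42. Of all 14 genes of this role, 9 were below 0 in both lines, 3 (IFI44, APOL1 and APOL2) were above 0 in both and 2 (ADAR and TRIM25) differed in sign, all as deposited. Over all genes 56.0% were below 0 in both lines. APOL1 had the highest ratio of the list in AGS-1, 0.89, with 51.9 and 97.1 FPKM. In HGC-27 APOL1 was only at 0.258 and 0.559 FPKM (18 and 33 fragments), so its ratio there depends strongly on the pseudocount. For class I antigen presentation, 4 of 21 genes were in the table. B2M, the light chain of class I molecules, was at 18.8 and 12.7 FPKM in AGS-1 and at 50.3 and 38.0 FPKM in HGC-27. PSME1, an interferon-inducible proteasome activator, had ratios of −0.39 and −0.29, and PDIA3 −0.67 and −0.15, both given as deposited only. CALR had −0.30 and 0.02, the first of which became 0.13 under upper-quartile and the second −0.08 under table-total scaling.

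**Figure D2:**
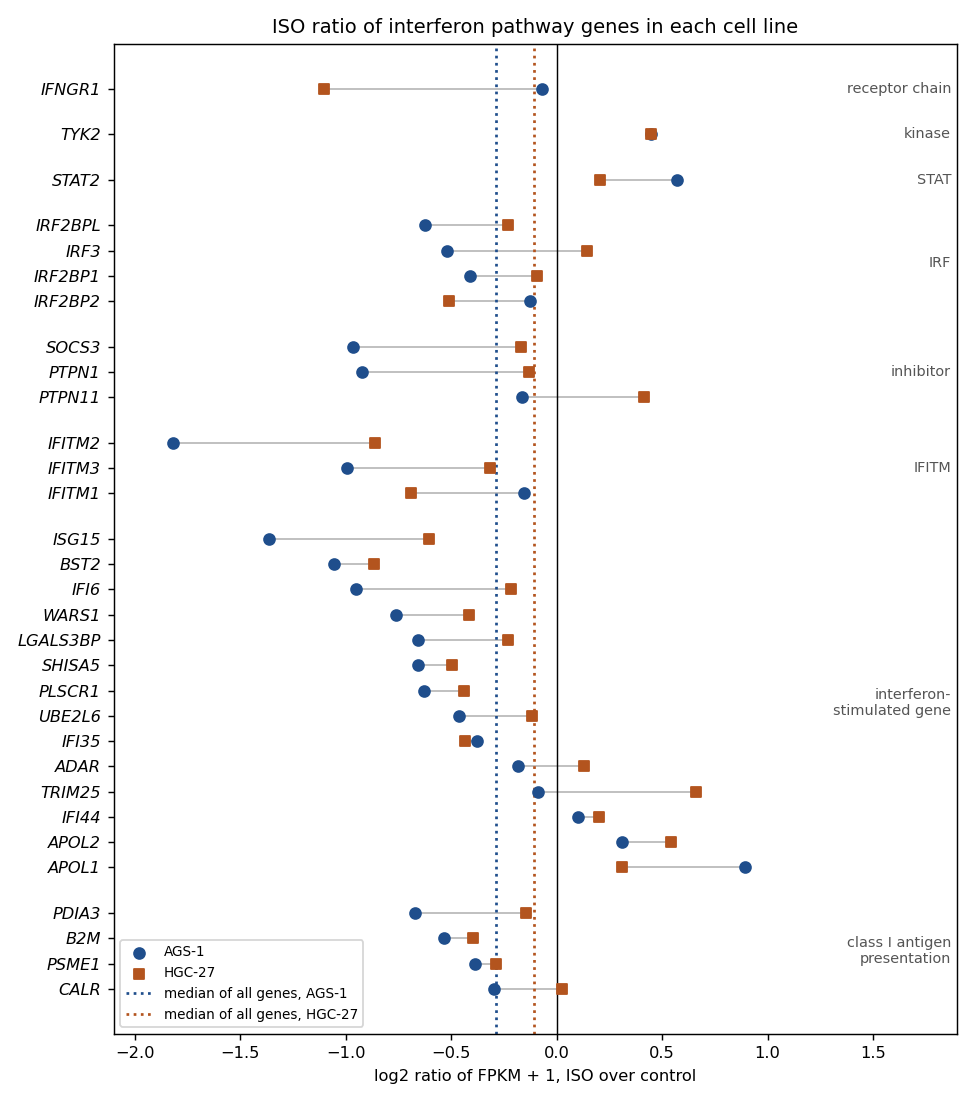
Log2 ratio of FPKM + 1, ISO over control, of IFITM2, IFNGR1 and 29 of the 30 other interferon pathway genes in the table, grouped by role, with circles for AGS-1, squares for HGC-27 and dotted lines at the median of all genes (−0.29 and −0.11). IFITM2 has the lowest ratio in AGS-1 (−1.82) and IFNGR1 the lowest in HGC-27 (−1.10).

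The change shared by both lines was tested over the list with limma, with 2 libraries per treatment, the cell line in the model and 1 residual degree of freedom. That degree of freedom is the difference between the 2 lines in the ISO ratio, since each condition is 1 library. With Benjamini-Hochberg adjustment over all 2883 genes tested, 0 of the 30 genes passed 0.05, beside 0.832% of all genes lower (24 genes) and 0.104% higher (3 genes). At an unadjusted p under 0.05, 11 of the 30 were lower and 2 higher with ISO, beside 514 and 64 of the 2883 genes. The split of the list depended on the scaling, with 6 lower and 4 higher under median-of-ratios scaling, beside 309 and 202 of all genes. BST2 came closest, with a shared log2 change of −0.96 and an adjusted p of 0.0784 by limma, lower in both lines, and over the alternatives its adjusted p ran from 0.0325 to 1.00. No p was computed for IFITM2 or IFNGR1, since they were chosen with these values known.

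RefSeq promoter windows were found for 24 of the 30 list genes. Of these, 12 held an ISRE match and 6 a GAS match, beside 3.42% and 7.46% of the 2253 genes of the whole table with a window. Of the 12 genes with an ISRE match, 10 had a log2 ratio below that of the median gene in AGS-1, and 11 did so in HGC-27. Of the 12 without one, 7 and 6 did. These groups also differ in role. Those with a match were all interferon-stimulated, IFITM or class I genes, while those without also included signalling genes and inhibitors, such as TYK2 and SOCS3. By definition the median splits all genes of the table evenly. How many of the 77 genes of the whole table with an ISRE match lay below it was not counted. Whether the motif has a part in the ratios was not tested. No window was listed for IFITM2, and those of IFNGR1 held no match.

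**Figure D3:**
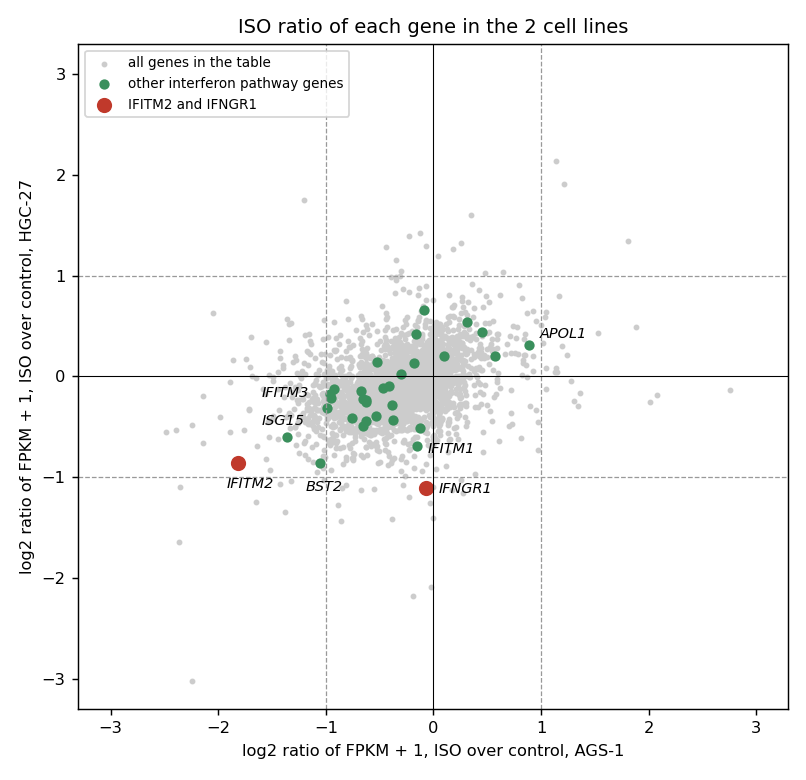
Log2 ratio of FPKM + 1, ISO over control, in AGS-1 (x axis) against HGC-27 (y axis), with grey points for all 2897 genes, green for the 30 other interferon pathway genes, red for IFITM2 and IFNGR1, and dashed lines at a 2-fold difference. IFITM2 lies at −1.82 and −0.86 and IFNGR1 at −0.07 and −1.10.

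To place the pattern of each gene, its log2(FPKM + 1) was centred on its mean over the 4 libraries, and the Euclidean distance to the centred values of the 2882 other genes averaging 1 FPKM or more was taken. The closest to IFITM2 was TRIB3, a pseudokinase of the stress response, at a distance of 0.247, with 13.2 FPKM in the AGS-1 control, 2.82 with ISO, and 118 and 80.0 FPKM in HGC-27. STOM, a membrane protein, followed at 0.582 and BST2 at 0.673, while ATAD2 and ADGRA2 were already at 1.08 and 1.15. The median distance of all genes to IFITM2 was 4.11. The paralogs were not among the closest, with IFITM3 at 2.72 and IFITM1 at 3.33.

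The closest to IFNGR1 was CITED2, a transcriptional coregulator, at 0.229, with 22.8 and 21.1 FPKM in AGS-1 and 19.8 and 9.83 FPKM in HGC-27. AKIRIN2 followed at 0.314, the pseudogene BTF3L4P2 at 0.327, TLE1, a corepressor, at 0.352 and RNF114, a ubiquitin ligase, at 0.386, against a median of 1.13. BTF3L4P2 may share fragments with its parent gene. The distances rest on 4 libraries, so they describe the pattern and carry no test. IFITM2 and IFNGR1 were 4.44 apart, which put IFNGR1 at position 1868 in order of distance from IFITM2.

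**Figure D4:**
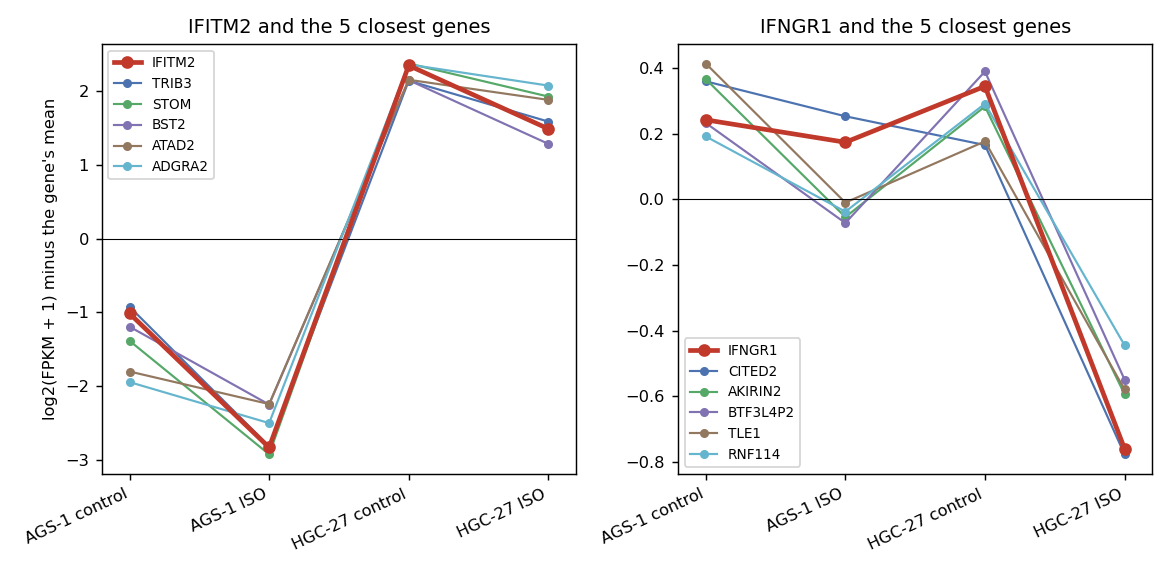
Log2(FPKM + 1) minus the gene's mean over the 4 libraries, for IFITM2 with its 5 closest genes (left) and IFNGR1 with its 5 closest genes (right), the 2 panels having different y axes. IFITM2 and its closest genes are low in AGS-1 and high in HGC-27, whereas IFNGR1 and its closest genes are lowest in HGC-27 with ISO.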

How the data were processed

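RNA of AGS-1 and HGC-27 cells, untreated or treated with ISO, was sequenced from mRNA libraries on an Illumina NextSeq. The deposited data hold 1 sample and 1 column per condition, although the study's text speaks of duplicates. The deposited values, 1 per gene and library, were taken as the authors' FPKM from the study's own plot of these libraries. The submitters' processing notes name HISAT2, CASAVA 1.8 and GRCh38. The counting tool, the annotation and the selection of the 2897 genes, 98.1% of which averaged 10 FPKM or more, are not given in the sources used here.

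Multiplied by gene length, 100% of the FPKM values of each library came out as whole numbers of fragments (within 0.001 fragments). This gave the fragments per gene and the library totals, which served for depth and counting intervals (exact Poisson and exact binomial, 95%) and not for the ratios. A count of 3 fragments, taken as the smallest signal, was at most 1.97e-05% of a library. Since the values are FPKM, no count test was used.

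Ratios were taken on log2(FPKM + 1) with the scaling as deposited. limma 3.58.1 in R 4.3.3 (lmFit, eBayes with trend) was run on log2(FPKM + 1) for genes averaging 1 FPKM or more. It was also run on simulated data in which ISO had the same effect in both lines. That run cannot show how the test behaves where the lines differ in their ISO ratio. With 2 libraries per treatment, 1 from each line, the residual is the difference between the 2 lines in the ISO ratio. The p-values rest on that difference, moderated across genes by eBayes, and not on variation between cultures. The rest was done in Python 3.11.15 with scipy 1.17.1 and pandas 2.3.3. Sequences came from RefSeq (GRCh38.p14) and GENCODE 29. Transcripts reaching no more than 20 bases past the gene in the table were used for the 50-base words of each gene. These words were searched in all transcripts of other genes, without that limit.

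Alternatives were pseudocounts of 0.1 and 5 FPKM, median-of-ratios, upper-quartile and table-total scaling, filters on low values, and a model without the cell line. Ratios without a pseudocount were added after seeing the data. The members, gene lists and tests were chosen with earlier results of these data known. The genes named were, by rule, the 2 members, list genes in the roles of kinase, STAT, IRF, IFITM and class I presentation or at least 2-fold different, the 5 closest patterns, and genes within 250 kb. The values of 1 list gene are not reported here, though the counts and medians over the list include it. The inhibitors and the interferon-stimulated genes other than ISG15 and BST2 were named after their values were seen.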

Additional observations from a re-analysis of the deposited data

Results flagged for a closer look

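In 5 of the 30 other interferon pathway genes the ISO library lay below the control in AGS-1 and above it in HGC-27, which is why they are listed. With 1 library per condition these differences were not tested. Over all genes, 78.6% were below 0 in AGS-1 and 56.0% in both lines. Many genes of the table were thus below 0 in AGS-1 only, and a split of this kind is not particular to the list. The log2 ratio in AGS-1 minus that in HGC-27 was −0.75 for TRIM25, a ubiquitin ligase of viral RNA sensing, with −0.09 in AGS-1 and 0.66 in HGC-27. It was −0.67 for IRF3 (−0.52 and 0.15), the only one of the 5 with opposite signs under each scaling tried. For PTPN11 it was −0.58, for CALR −0.32 and for ADAR, an RNA-editing enzyme, −0.31. The counting interval of the CALR ratio in HGC-27 (−0.004 to 0.053) held 0. Under median-of-ratios scaling the AGS-1 ratios of TRIM25, PTPN11 and ADAR were 0.17, 0.11 and 0.09, above 0 as in HGC-27, and under upper-quartile scaling that of CALR was 0.13.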

How the results depend on the processing

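IFITM2 kept its direction in all 4 comparisons under all 6 alternatives, and IFNGR1 in 3 of 4. The log2 ratio of IFITM2 with ISO in AGS-1 was −1.05 with a pseudocount of 5 FPKM and −2.28 with none. In HGC-27 it was −0.71 with upper-quartile and −0.96 with table-total scaling. Between the controls it was −2.95 with a pseudocount of 5 and −3.69 with upper-quartile scaling. Between the ISO libraries it was −3.17 with a pseudocount of 5, −4.84 with 0.1 and −4.91 with none. For IFNGR1 in AGS-1 the ratio turned to 0.20 with median-of-ratios and 0.34 with upper-quartile scaling. In HGC-27 it was −0.94 with a pseudocount of 5 and −0.96 with upper-quartile scaling, both short of 2-fold. Between the controls it was −0.29, −0.45 and −0.27 with median-of-ratios, upper-quartile and table-total scaling, and between the ISO libraries 0.79 with a pseudocount of 5.

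Genes at least 2-fold lower in AGS-1 numbered 72 with median-of-ratios and 45 with upper-quartile scaling, and those higher 50 and 60. In HGC-27 46 were lower and 27 higher with a pseudocount of 0.1, 16 were lower with 5, and 15 were lower and 26 higher with upper-quartile scaling. Of the list, 1 gene was lower in AGS-1 with a pseudocount of 5, 1 lower and 1 higher with median-of-ratios, and 0 lower and 1 higher with upper-quartile scaling. In the limma test, 99 genes were lower and 8 higher with a pseudocount of 0.1, 9 lower with 5, 4 lower without a filter, and 93 lower and 11 higher with averages of 10 FPKM or more. With median-of-ratios scaling 0 passed in either direction (309 lower and 202 higher at an unadjusted p under 0.05), and 0 without the cell line in the model (8 and 7). At that unadjusted p, the list had 6 genes lower and 4 higher with median-of-ratios scaling, and 1 and 0 without the cell line. Of the list, 1 gene, BST2, passed with a pseudocount of 0.1 and with averages of 10 FPKM or more. The cause of these shifts was not tested. The labels give no replicate numbers, so the limma test, with the cell line in the model, paired ISO with control only by cell line. For IFITM2 in AGS-1, 46 fragments with ISO set the precision. Variation between cultures could not be measured.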
